A study of Mus musculus with 6 samples.

Results

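Canonical WNT feedback targets and the receptors for R-spondins were examined in laser-captured mesenchyme of the mouse incisor. They were the 10 genes Axin2, Lef1, Tcf7, Nkd1, Nkd2, Rnf43, Znrf3, Lgr4, Lgr5 and Lgr6, chosen by symbol, and all 10 were present among the 23718 genes of the deposited table. Mice were 1 month old and were captured 1 day after tamoxifen. The mesenchymal stem cell (MSC) samples, 3 in number, came from Gli1-CreER;tdT mice, and the 3 transit amplifying cell (TAC) samples came from Axin2-CreER;tdT mice. The labels give the strain as C57BL/6, and the methods of the study describe a mixed background and either sex. In both groups a tamoxifen-dependent Cre switched on the red reporter tdTomato, and no group lacked a driver or tamoxifen. As background, both drivers are knock-in alleles, so the recombinase sits in the Gli1 or the Axin2 locus itself. Axin2 is therefore both a gene measured here and the altered locus of the TAC mice, and the number of altered copies was not given. The study speaks of the captured material both as labelled cells and as regions, and the purity of the capture was not given.

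In canonical WNT signaling, a ligand bound to Frizzled and LRP5 or LRP6 stops the destruction complex from degrading β-catenin, which then enters the nucleus and activates genes together with TCF and LEF proteins. Several of the activated genes act back on the pathway. AXIN2 is a scaffold of the destruction complex, NKD1 and NKD2 bind Dishevelled, and RNF43 and ZNRF3 are ubiquitin ligases that remove Frizzled from the cell surface. R-spondins, secreted proteins that bind LGR4, LGR5 or LGR6, draw RNF43 and ZNRF3 away and so raise the response to WNT. The study used the Axin2 driver to mark the dividing progeny of the stem cells.

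Values are estimated read numbers with 1 read added, scaled per library, and a gene is compared between libraries under that scaling. The third quartile over all genes was 15.59 to 15.62 in every library. How well this scaling aligns replicate 3, which had more genes without a read, was not tested. Depth ran from 20203159 to 108156380 estimated reads. Replicate 3 of both groups stood apart from replicates 1 and 2. Genes without a read made up 42.6% of the table in MSC replicate 3 and 27.8% in TAC replicate 3, against 6.38% to 7.88% in the other 4 libraries. By a chi-square per gene on estimated reads, libraries 1 and 2 of a group were 8.45 to 10.3 apart, against 1876 to 2312 for pairs with replicate 3. Members are therefore also given within replicates 1 and 2 and within replicate 3, where a group has 1 library. Gli1, the marker of the MSC region, measured 256, 245 and 422 in MSC libraries 1, 2 and 3, against 153, 141 and 396 in TAC. It was higher in MSC in each same-numbered pair and without overlap in replicates 1 and 2, and the groups overlapped once replicate 3 was included. The proliferation gene Mki67 ranged from 41.5 to 137 in MSC and from 122 to 630 in TAC.

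Nkd2 and Lgr6 were higher in TAC and Lgr4 was higher in MSC without overlap of the groups, and the other members overlapped. Groups without overlap were thus found for 3 of the 9 members tested, and for 24.5% of the 15391 genes tested (12.3% higher in TAC and 12.2% higher in MSC). In limma, 0 of 9 members had an adjusted p-value under 0.05 (0.422% of all genes) and 3 had an unadjusted p-value under 0.05 (11.9% of all genes). On reads recovered from the values, limma voom gave 0 (0.149% of all genes) and 4 (23.2% of all genes). When the library set (replicate 3 against replicates 1 and 2) was added to the model, Nkd1, Nkd2, Lgr4 and Lgr6 passed the adjusted threshold, 4 of 9 members against 11.8% of all genes. That model counts replicates 1 and 2 as separate samples, and with these replicates averaged the adjusted threshold was passed by 0 of 9 members (0.0532% of all genes) and the unadjusted one by 1 (3.91% of all genes). With the replicate number as a block it was 0 of 9, against 1.49% of all genes, and 4 members had an unadjusted p-value under 0.05 (20.4% of all genes), with Nkd1 added. Over the 9 members the median log2 fold change was 0.42, which is the value of Rnf43, and over all genes it was 0.026. The members' median was 0.20 for replicates 1 and 2 (all genes -0.046) and 0.81 for replicate 3 (all genes 0.042). Without a library it ran from 0.085 (without MSC replicate 3) to 0.98 (without MSC replicate 1). The tenth member, Lgr5, fell short of the mean of 1 required for testing.

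**Figure D1:**
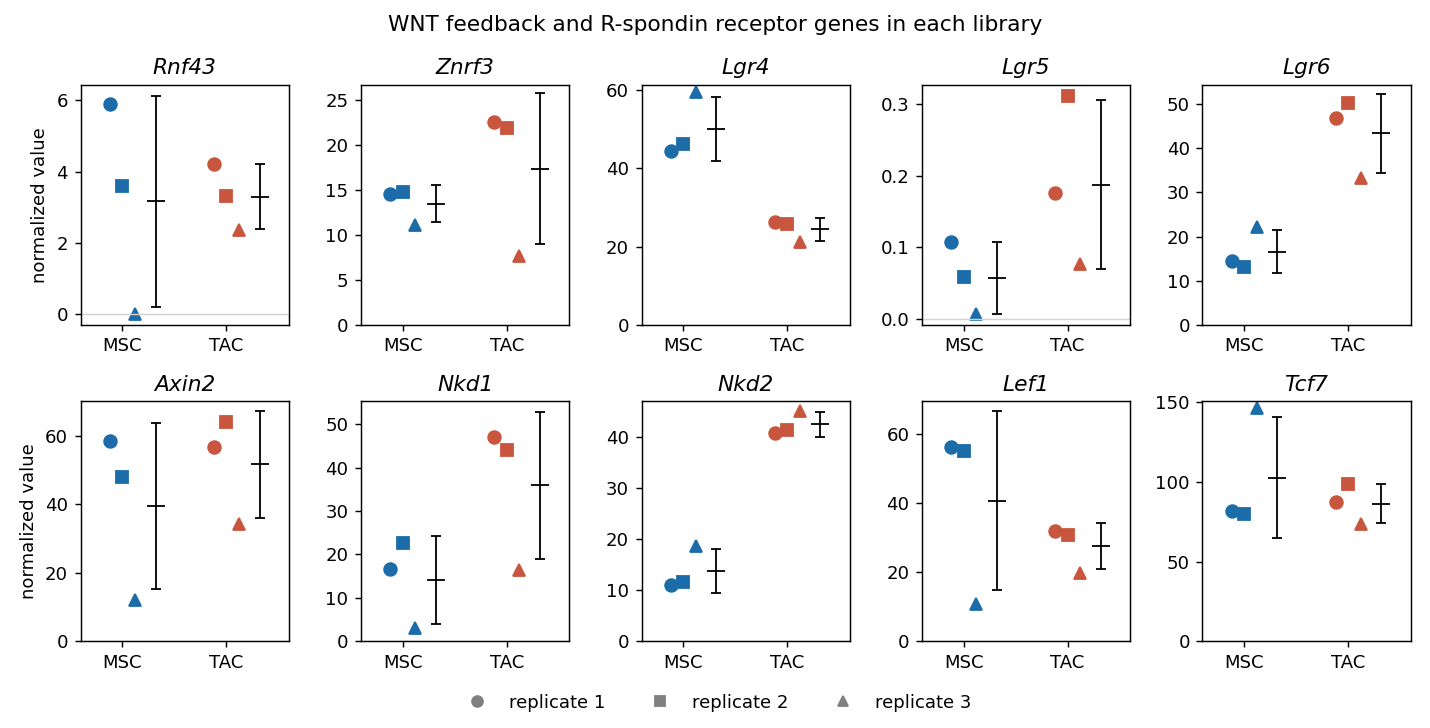
Normalized value of each of the 10 genes (vertical axes, linear, one scale per panel) in the MSC and TAC libraries. Circles, squares and triangles are replicates 1, 2 and 3, and the bars are the mean ± SD of 3 libraries. Only Lgr4, Lgr6 and Nkd2 show groups that do not overlap, and for Axin2, Nkd1 and Lef1 the MSC triangle (12.01, 2.98 and 10.9) lies far below the other MSC points.

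The receptors for R-spondins were considered first. Lgr4, the member of the family with the broadest known expression, lies on chromosome 2 from 109917647 to 110014257 (plus strand). MSC libraries 1, 2 and 3 measured 44.3, 46.3 and 59.4 for Lgr4, against 26.3, 25.8 and 21.1 in TAC libraries 1, 2 and 3. The lowest MSC library lay well above the highest TAC library. Means were 50.01 ± 8.20 for MSC and 24.4 ± 2.86 for TAC (SD, n = 3 each), 2.05-fold higher in MSC. The log2 fold change came to -1.0005 (SE 0.27, adjusted p 0.195 in limma). Replicates 1 and 2 alone gave -0.78, and replicate 3 gave -1.45. With the library set in the model the adjusted p was 0.0252.

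Lgr6, known as a marker of stem cells in skin, lies on chromosome 1 from 134983301 to 135105276 (minus strand). It measured 14.5, 13.2 and 22.1 in MSC libraries 1, 2 and 3, against 46.8, 50.2 and 33.3 in TAC. Here every TAC library exceeded every MSC library, with the smallest gap in replicate 3. Means were 16.6 ± 4.80 for MSC and 43.4 ± 8.92 for TAC (SD, n = 3 each), 2.62-fold higher in TAC. A log2 change of 1.35 (SE 0.33, limma adjusted p 0.170) split into 1.74 for replicates 1 and 2 and 0.57 for replicate 3. Its adjusted p was 0.0330 with the library set in the model. Lgr4 and Lgr6 kept their opposite directions in each of 19 alternative analyses.

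Since Lgr4 and Lgr6 differed in opposite directions, their ratio was computed within each library, where the scaling of the library cancels. This measure was chosen after the values were seen. Per kilobase of annotated exon, the Lgr6 to Lgr4 ratio stood at 0.281, 0.245 and 0.319 for MSC libraries 1, 2 and 3, against 1.53, 1.67 and 1.36 for TAC. Lgr4 was thus the more abundant transcript in all 3 MSC libraries and Lgr6 in all 3 TAC libraries. The ratio was 5.40-fold higher in TAC by geometric means. Leaving out each library in turn moved the log2 ratio of 2.43 to between 2.33 and 2.53. Since both genes had already been seen to separate the groups in opposite directions, the separation of the ratio was fixed by that choice and was not tested.

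**Figure D2:**
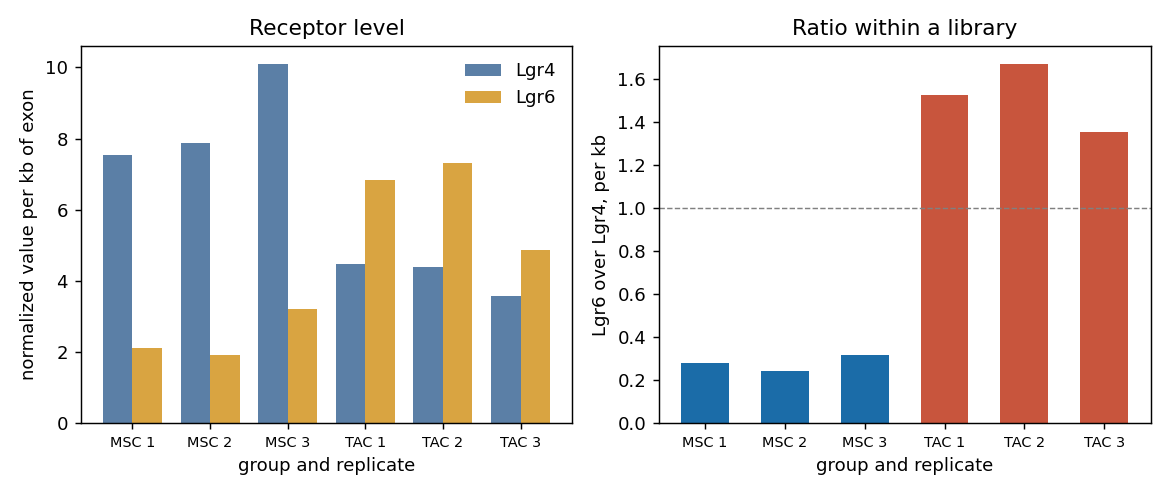
Left, level of Lgr4 and Lgr6 per kilobase of exon (vertical axis, normalized value per kb) in each library. Right, the ratio of Lgr6 to Lgr4 in the same library, with a dashed line at equal levels. The ratio lies between 0.245 and 0.319 in the MSC libraries and between 1.36 and 1.67 in the TAC libraries.

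Lgr5, a WNT target and stem cell marker of the intestine, lies on chromosome 10 from 115450311 to 115587780 (minus strand) and was near the limit of detection. It had 3, 1 and 0 estimated reads in MSC libraries 1, 2 and 3, against 7, 12 and 19 in TAC, and a count of 0 allows up to 3 by counting error. Its normalized values were 0.107, 0.0580 and 0.00666 for MSC, against 0.175, 0.312 and 0.0758 for TAC, and the lowest TAC value lay below the highest MSC value. Of the 3 receptors, Lgr4 and Lgr6 were thus measured with 454 reads or more in every library and Lgr5 with 19 at most.

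The windows around the start sites of both receptors are shown because the genes differed in opposite directions. Sequences run from 250 bases before to 50 bases after the RefSeq start on GRCm38.p6, 5′ to 3′ on the strand of the gene. Capitals mark 3 searched motifs on either strand: CTTTGA, the core letters bound by TCF and LEF proteins, GGGCGG, the GC box, and CCAAT. In the windows shown, no marked motifs overlap. The Lgr6 window is chr1:135105227-135105526 (minus strand) and the Lgr4 window is chr2:109917397-109917696 (plus strand).
Lgr6: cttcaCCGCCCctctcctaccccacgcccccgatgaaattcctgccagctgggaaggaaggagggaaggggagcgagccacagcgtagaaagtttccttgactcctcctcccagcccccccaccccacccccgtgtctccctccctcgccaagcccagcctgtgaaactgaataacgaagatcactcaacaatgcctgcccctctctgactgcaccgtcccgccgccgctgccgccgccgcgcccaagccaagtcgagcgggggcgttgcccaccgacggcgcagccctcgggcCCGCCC
Lgr4: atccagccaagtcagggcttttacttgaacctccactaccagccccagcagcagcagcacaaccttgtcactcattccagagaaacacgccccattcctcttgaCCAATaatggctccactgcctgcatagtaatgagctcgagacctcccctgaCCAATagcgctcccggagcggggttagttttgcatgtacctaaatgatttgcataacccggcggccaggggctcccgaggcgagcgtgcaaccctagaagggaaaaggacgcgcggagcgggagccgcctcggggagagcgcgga
The Lgr6 window held 2 GC boxes, a motif found in 35.7% of all promoter windows, and the Lgr4 window held 2 CCAAT motifs, found in 37.4%. The letters CTTTGA were in neither window, and 16.0% of all windows hold them.

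The R-spondin ligands were examined next, since they act through these receptors. Of the 4 ligands 3 reached the mean required for testing, and 0 of 3 passed the adjusted threshold in limma (0.422% of all genes). Rspo1 measured 20.3, 18.5 and 23.7 in MSC libraries 1, 2 and 3, against 7.86, 5.54 and 1.19 in TAC. All MSC libraries lay above all TAC libraries, and the means differed 4.29-fold. Rspo1 had a log2 difference of -2.11 (SE 0.58, unadjusted p 0.00790, limma adjusted p 0.201), against -1.42 for replicates 1 and 2 and -3.50 for replicate 3. With the library set in the model its adjusted p was 0.0451, and in voom its log2 difference was -3.74. Rspo2 averaged 23.4 ± 5.79 for MSC and 31.9 ± 17.2 for TAC (SD, n = 3 each), with a log2 fold change of 0.64 for replicates 1 and 2 and -0.47 for replicate 3. Rspo4 averaged 191 ± 10.4 for MSC and 176 ± 19.9 for TAC (SD, n = 3 each), with a 95% interval of the log2 fold change from -0.74 to 0.51. The Rspo4 value was -0.25 for replicates 1 and 2 and 0.15 for replicate 3. Rspo3 had values of 0.320 or less in every library.

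The ligases Rnf43 and Znrf3, the targets of R-spondins at the membrane, differed between MSC and TAC in opposite directions in the library sets. Znrf3, on chromosome 11 from 5276324 to 5444847 (minus strand), measured 14.5, 14.8 and 11.1 in MSC libraries 1, 2 and 3, against 22.6, 21.9 and 7.67 in TAC. It was higher in TAC in replicates 1 and 2 and lower in replicate 3. Over all libraries the log2 fold change came to 0.22 (SE 0.48, limma adjusted p 0.915), made up of 0.57 for replicates 1 and 2 and -0.48 for replicate 3. It was -0.028 without TAC replicate 1 and -0.0064 without TAC replicate 2. Rnf43, on the same chromosome from 87662722 to 87735539 (plus strand), measured 5.89, 3.59 and 0.00666 in MSC libraries 1, 2 and 3, against 4.20, 3.31 and 2.37 in TAC. In MSC replicate 3 it had 0 estimated reads, which allows up to 3 by counting error, and in TAC replicate 3 it had 624. The log2 fold change of Rnf43 was 0.42 (SE 0.79, limma adjusted p 0.901), against -0.25 for replicates 1 and 2 and 1.74 for replicate 3. Without MSC replicate 3 it was -0.41, and in voom it was 5.01.

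Among the cytoplasmic members, Nkd2 had the smallest p-value of the 9 tested. It lies on chromosome 13 from 73818534 to 73847631 (minus strand). MSC libraries 1, 2 and 3 measured 11.01, 11.6 and 18.7 for Nkd2, against 40.8, 41.3 and 45.1 in TAC. The 3 TAC libraries were nearly level and far above the highest MSC library. Means were 13.8 ± 4.27 for MSC and 42.4 ± 2.36 for TAC (SD, n = 3 each), 3.08-fold higher in TAC. Nkd2 had a log2 fold change of 1.59 (SE 0.31, unadjusted p 0.00127, limma adjusted p 0.108). Replicates 1 and 2 alone gave 1.77, and replicate 3 gave 1.23. The adjusted p was 0.00777 with the library set in the model and 0.0318 without MSC replicate 3, where Nkd2 was the 1 member that passed. In that fit 280 of 15523 genes passed, and the MSC spread was only that between replicates 1 and 2. Leaving out any other library gave Nkd2 an adjusted p of 0.174 to 0.503. With the replicate number as a block it was 0.0565. Over 19 alternatives its log2 fold change ran from 1.36 to 1.82.

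Its paralog Nkd1, on chromosome 8 from 88521354 to 88594884 (plus strand), measured 16.7, 22.7 and 2.98 in MSC libraries 1, 2 and 3, against 47.1, 44.0 and 16.5 in TAC. Each TAC library was higher than the MSC library with the same number, but TAC replicate 3 lay below MSC replicate 2. Means were 14.1 ± 10.1 for MSC and 35.9 ± 16.9 for TAC (SD, n = 3 each). A log2 fold change of 1.501 (SE 0.74, limma adjusted p 0.489) split into 1.18 for replicates 1 and 2 and 2.14 for replicate 3. It was 0.71 without MSC replicate 3 and 2.32 in voom. With the library set in the model the SE was 0.27 and the adjusted p was 0.0237. With the replicate number as a block the unadjusted p of 0.0808 became 0.00599, and the adjusted p was 0.0962.

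Axin2, whose driver labelled the TAC region, lies on chromosome 11 from 108920349 to 108950783 (plus strand). It measured 58.3, 48.0 and 12.01 in MSC libraries 1, 2 and 3, against 56.8, 63.9 and 34.1 in TAC. The groups overlapped, also within replicates 1 and 2. Means were 39.4 ± 24.3 for MSC and 51.6 ± 15.59 for TAC (SD, n = 3 each). The 95% interval of its log2 fold change of 0.60 (limma adjusted p 0.758) ran from -0.80 to 2.001. Replicates 1 and 2 alone gave 0.18 and replicate 3 gave 1.43, and leaving out MSC replicate 3 gave -0.084.

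The windows of Nkd2 and Axin2 are shown with the same marks, as the member with the smallest p-value and the marker gene of the TAC region. They are chr13:73847582-73847881 (minus strand) and chr11:108920099-108920398 (plus strand).
Nkd2: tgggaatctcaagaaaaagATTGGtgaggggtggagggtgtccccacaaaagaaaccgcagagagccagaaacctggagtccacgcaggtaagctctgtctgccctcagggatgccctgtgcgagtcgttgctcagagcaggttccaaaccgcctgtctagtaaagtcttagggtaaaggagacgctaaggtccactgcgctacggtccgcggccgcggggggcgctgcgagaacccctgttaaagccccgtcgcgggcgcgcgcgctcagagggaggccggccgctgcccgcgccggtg
Axin2: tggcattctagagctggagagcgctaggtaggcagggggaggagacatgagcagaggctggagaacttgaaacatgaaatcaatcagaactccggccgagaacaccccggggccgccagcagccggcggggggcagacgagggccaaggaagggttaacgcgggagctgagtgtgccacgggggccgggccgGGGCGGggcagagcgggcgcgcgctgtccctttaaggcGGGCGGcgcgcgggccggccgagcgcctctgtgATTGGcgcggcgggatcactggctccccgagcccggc
The Axin2 window held 2 GC boxes and 1 CCAAT motif, and the Nkd2 window held 1 CCAAT motif. CTTTGA was in neither.

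The DNA-binding partners of β-catenin did not separate the groups. Lef1, on chromosome 3 from 131110471 to 131224356 (plus strand), measured 56.1, 55.2 and 10.9 in MSC libraries 1, 2 and 3, against 31.9, 30.7 and 19.8 in TAC. It was higher in MSC in replicates 1 and 2 and higher in TAC in replicate 3. Over all libraries the log2 fold change came to -0.27 (SE 0.63, limma adjusted p 0.922), made up of -0.81 for replicates 1 and 2 and 0.81 for replicate 3. Without MSC replicate 1 or MSC replicate 2 it was 0.11 and 0.10. Tcf7, on chromosome 11 from 52252371 to 52283014 (minus strand), measured 81.8, 79.9 and 146 in MSC libraries 1, 2 and 3, against 87.4, 98.5 and 73.6 in TAC. The groups overlapped, with the highest and the lowest value in replicate 3. A log2 fold change of -0.20 (SE 0.33, limma adjusted p 0.881) split into 0.20 for replicates 1 and 2 and -0.98 for replicate 3. Without MSC replicate 3 it was 0.085. Lef1 and Tcf7 thus ran against each other in both library sets. In all, 4 of 9 members had opposite directions in the library sets, against 38.8% of all genes. A term for the difference between library sets passed for 9 of 9 members and for 57.2% of all genes, and since its error is only the spread between replicates 1 and 2, nothing is read from it.

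**Figure D3:**
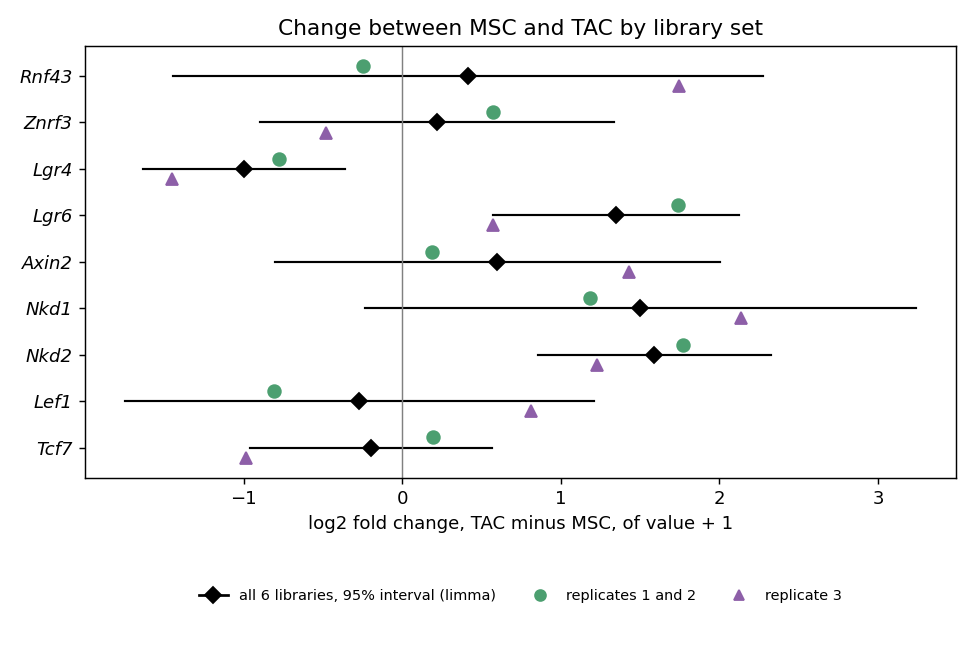
Log2 fold change of TAC minus MSC (horizontal axis, value + 1) of the 9 members tested. Black diamonds and lines are the limma estimate over 6 libraries and its 95% interval, circles the change in replicates 1 and 2, and triangles the change in replicate 3. The interval lies on one side of 0 for Lgr4, Lgr6 and Nkd2, and circle and triangle fall on opposite sides of 0 for Rnf43, Znrf3, Lef1 and Tcf7.

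The letters CTTTGA were found in 1 of 13 promoter windows of the 8 members matched by symbol in the RefSeq table (not Lgr5 and Znrf3). That window belongs to an internal start of Lef1, 1 of 4 Lef1 starts listed, at chr3:131156044-131156343 (plus strand). It is shown because it was the only one with these letters.
Lef1: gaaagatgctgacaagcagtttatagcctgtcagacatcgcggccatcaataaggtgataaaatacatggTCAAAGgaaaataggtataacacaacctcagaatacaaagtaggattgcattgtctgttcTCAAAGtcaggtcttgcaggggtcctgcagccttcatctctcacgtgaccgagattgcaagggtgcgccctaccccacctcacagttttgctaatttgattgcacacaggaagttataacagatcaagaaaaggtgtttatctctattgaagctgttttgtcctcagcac
Both matches read TCAAAG on this strand and begin 180 and 120 bases before the start site. The deposited table gives 1 value per gene, so the use of this start was not measured. TTTCCCGC, the letters of an E2F site, were in 0 of 13 windows and in 1.07% of all windows.

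Levels were compared between members per kilobase of exon. Tcf7 had the highest level in all 6 libraries, at 28.02 to 55.8, in the 97.5 to 98.8 percentile of genes with an exon length. Axin2 (2.18 to 11.6), Lgr4 (3.59 to 10.1), Nkd2 (2.28 to 9.35), Nkd1 (0.654 to 10.3), Lgr6 (1.92 to 7.32) and Lef1 (1.24 to 6.39) followed by their mean over all 6 libraries, and each overlapped the next in its range over libraries. The ligase gene Znrf3 (0.972 to 2.86) overlapped Lef1 in range. The order of these 6 genes differed between the groups. By MSC means it was Lgr4 (8.50), Axin2 (7.16), Lef1 (4.63), Nkd1 (3.10), Nkd2 (2.86) and Lgr6 (2.42), and by TAC means it was Axin2 (9.37), Nkd2 (8.79), Nkd1 (7.87), Lgr6 (6.34), Lgr4 (4.15) and Lef1 (3.13). Rnf43 (0.00102 to 0.898) lay below Znrf3 without overlap. Lgr5 was lowest by mean, at 0.0119, and had its highest level, 0.0304, in TAC replicate 2.

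Genes whose pattern over the 6 libraries lay closest to a member were found for 8 members, Rnf43 and Lgr5 being too low, by the root mean square difference of centred log2 values among 7845 genes with a mean of at least 10. For Axin2 they were Zc3h18, Tmem248, Tax1bp1, Ube2o and Rcor1, at 0.0859 to 0.104. Lgr6 lay closest to Mcm6 (0.129), a subunit of the replicative helicase, and Nkd2 to Ranbp1 (0.125), a regulator of nuclear transport. Nkd1 lay closest to Fbn2 (0.126), which encodes fibrillin-2. The nearest genes to Lgr4, Znrf3, Lef1 and Tcf7 were Pitpnm1 (0.0696), Prkd3 (0.0572), Filip1l (0.0541) and Gatsl2 (0.0620). Among the members, Lgr6 and Nkd2 were closest to each other, at 0.259.

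Other genes of the pathway were taken from 5 lists written by role, with 57 of 64 genes tested. In limma, 1 of 57 passed the adjusted threshold, against 0.422% of all genes. At an unadjusted p-value under 0.05, 8 were higher in TAC (5.42% of all genes) and 5 higher in MSC (6.43% of all genes). The median log2 fold change over the 57 genes was 0.0028. With the library set in the model, 7 were higher in TAC (5.22% of all genes) and 8 in MSC (6.56% of all genes) at the adjusted threshold.

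Of 16 other canonical WNT targets tested, 5 were higher in TAC (5.42% of all genes) and 1 in MSC (6.43%) at the unadjusted threshold. Their median log2 fold change was 0.30. Jag1, a Notch ligand, passed the adjusted threshold in the direction of MSC, with 88.2, 85.4 and 71.7 in MSC libraries 1, 2 and 3, against 15.61, 17.4 and 6.91 in TAC. It had a log2 fold change of -2.62 (SE 0.38, limma adjusted p 0.0483). Adjusted p-values lay between 1.06e-15 and 0.440 over 19 alternatives, and 11 of them lost the call. Leaving out MSC replicate 1 or 2 gave 0.254, and leaving out TAC replicate 1, 2 or 3 gave 0.188, 0.202 and 0.0502. The 5 targets higher in TAC, named here after their values were seen, were Dkk1 (log2 fold change 2.96), Msx2 (1.49), Tnfrsf19 (1.40), Bambi (1.21) and Ccnd1 (0.76). Dkk1 had no read in MSC replicate 3, and voom gave it a log2 fold change of 7.88. The limma adjusted p-values of the 5 targets were 0.106 to 0.279, and their groups did not overlap. Dkk1 and Bambi encode inhibitors of WNT and BMP signaling, and Ccnd1 encodes cyclin D1.

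Among coreceptors and genes of ligand release, 2 of 5 were higher in TAC at the unadjusted threshold (5.42% of all genes). Notum, which encodes a secreted enzyme that inactivates WNT ligands, measured 5.24, 4.55 and 0.0399 in MSC libraries 1, 2 and 3, against 36.7, 36.2 and 22.9 in TAC. Its groups did not overlap. Notum had a log2 fold change of 3.29 (SE 0.73, limma adjusted p 0.144) and an adjusted p of 0.0104 with the library set in the model. When a library was left out, the change ran from 2.45 (without MSC replicate 3) to 3.75 (without MSC replicate 1). With replicates 1 and 2 only the log2 fold change of Notum was 2.67. In voom it was 7.25, with the MSC replicate 3 value near the floor. Lrp5 and Lrp6 had log2 fold changes of -0.76 and -0.28, with limma adjusted p-values of 0.687 and 0.942. Lrp5 was lower in TAC in all 3 same-numbered pairs, and its adjusted p was 0.0344 with the library set in the model. Without TAC replicate 3 its log2 fold change was -0.15, and without MSC replicate 3 it was -1.18. With the replicate number as a block Lrp5 had an unadjusted p of 0.0117, against 0.243 without it. Lrp6 was 0.56 without TAC replicate 3, 0.066 without MSC replicate 1 and 0.060 without MSC replicate 2.

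Of 18 genes of Dishevelled and the destruction complex, Ctnnb1, which encodes β-catenin, was the 1 with an unadjusted p-value under 0.05 (11.9% of all genes). It measured 149, 166 and 276 in MSC libraries 1, 2 and 3, against 346, 369 and 373 in TAC, and the groups did not overlap. Ctnnb1 had a log2 fold change of 0.93 (SE 0.34, limma adjusted p 0.346) and an adjusted p of 0.0248 with the library set in the model. The 15 nuclear partners and repressors had a median of -0.31. At the unadjusted threshold 3 were higher in MSC (6.43% of all genes) and 0 in TAC (5.42%). The largest change of these 3 was that of Tle1, a corepressor that binds TCF proteins. Tle1 measured 33.8, 34.9 and 43.3 in MSC libraries 1, 2 and 3, against 13.99, 14.96 and 13.9 in TAC. Its groups did not overlap, and its log2 fold change came to -1.32 (SE 0.28, limma adjusted p 0.126).

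**Figure D4:**
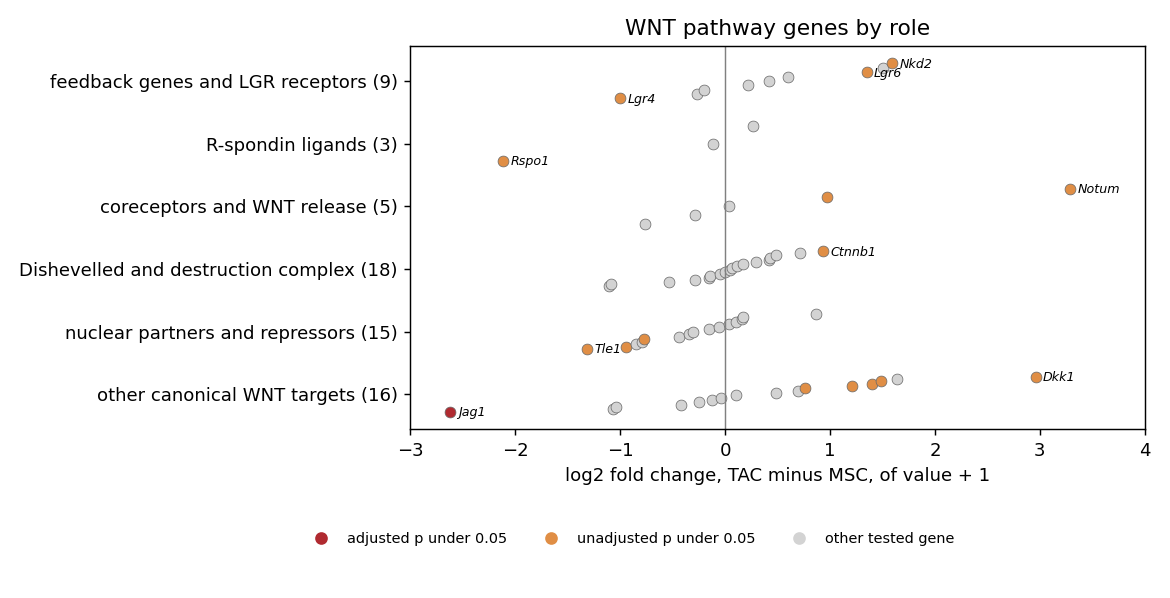
Log2 fold change of TAC minus MSC (horizontal axis, value + 1) of each gene tested, with genes in rows by role and the number tested in brackets. Names mark the largest change at an unadjusted p-value under 0.05 in each row, and Lgr4, Lgr6 and Jag1. Red marks an adjusted and orange an unadjusted p-value under 0.05 in limma. Jag1, at -2.62, is the 1 red point, and Notum and Dkk1 lie farthest toward TAC, at 3.29 and 2.96.

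Markers of some other cell types differed between the groups, and their part in the values above was not tested. Of all genes, 12.2% were lower and 12.3% higher in TAC without overlap. Pericyte and smooth muscle genes summed to 863 to 1588 in MSC and 110 to 136 in TAC, with 8 of 8 lower in TAC without overlap. Endothelial genes summed to 277 to 295 and 104 to 118, with 5 of 8 lower without overlap. Proliferation genes summed to 162 to 247 in MSC and 459 to 1160 in TAC, with 9 of 12 higher without overlap. Dental epithelium genes summed to 76.3 to 78.5 and 93.6 to 152, with 6 of 11 tested higher without overlap. In MSC replicate 3, 7 of the 12 epithelial genes had no read, Epcam, Cdh1 and Trp63 among them, while Krt14, Cldn1 and Perp had 16.02, 25.5 and 18.2. Cdh1 was 3.65 and 4.06 in MSC replicates 1 and 2 and 6.31 to 14.3 in TAC, and Cldn1 had the lower mean in TAC (5.32 against 11.5). Enamel matrix genes, products of the epithelium, summed to 305 to 3692 in MSC and 2537 to 3345 in TAC, with the low value in MSC replicate 3. None of these 7 genes separated the groups. Odontoblast genes summed to 2348 to 14821 and 12571 to 15931, with 1 of 7 higher in TAC without overlap. The sums were 23.6 to 46.2 and 8.54 to 19.3 for Schwann cells, 80.7 to 203 and 44.8 to 130 for macrophages and leukocytes, 30.9 to 62.1 and 17.2 to 24.1 for osteoclasts, and 37.2 to 79.0 and 56.3 to 75.8 for erythrocytes. Lower in TAC without overlap were 2 of 5 tested Schwann cell, 3 of 8 macrophage and leukocyte, 1 of 3 osteoclast and 0 of 5 erythrocyte genes. In such bulk samples, fewer cells of a type and less RNA per cell cannot be told apart.

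The use of strand in counting was not stated, so reads of overlapping genes cannot be separated. Lgr4, Lgr6 and Znrf3 overlap no other annotated gene. Tcf7 overlaps Gm26551 over 17144 bases and A630014C17Rik, Lef1 overlaps Gm43352 and Gm42449, Axin2 overlaps Gm11670, Nkd1 overlaps Gm45496, Nkd2 overlaps the pseudogene Gm8062, Rnf43 overlaps Gm25968 and 1110028F11Rik, and Lgr5 overlaps A930009A15Rik. Coordinates are 1-based on mm10. The methods give 3 mice per group and describe the sequenced samples as pairs, the basis of which was not given, and no label ties a library to an animal. Therefore the p-values measure the spread between these samples, which may be in part technical.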

How the data were processed

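RNA from laser-captured MSC and TAC regions was sequenced in 3 samples each. The authors trimmed single-end reads, aligned them to mm10 with TopHat 2.0.8 and, by their methods, computed RPKM. CASAVA 1.8.2 and Partek are named in the submitters' processing notes. The signal values the authors deposited are not divided by length: within a library low values are mostly multiples of its lowest value, and 68.4% to 73.9% of values under 200 reads lay within 0.05 of a whole read. Estimated reads were the value over the lowest value minus 1. Being partly fractional, they entered no main test, and among the fits only voom used them, as an alternative. Depth, genes without a read, single read counts and the chi-square per gene also rest on them.

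Tests used limma 3.58.1 (R 4.3.3) on log2(value + 1) with a variance trend, over 15391 genes with a mean of at least 1. Benjamini-Hochberg adjustment ran over all of these genes, and 0.05 was the threshold. A pseudocount of 1 understates changes of low genes. Fits were tested on simulated data, which for the main fit held no difference between replicate 3 and the others. Intervals of single counts cover counting error only. The members, the lists and the naming rule were chosen with earlier results of these data known. Named were the members, in each list the genes past the adjusted threshold or else the largest change at an unadjusted p-value under 0.05, Rspo1 to Rspo4, Ctnnb1, Lrp5 and Lrp6, and the nearest patterns without predicted genes. Any other gene named was chosen after its values were seen. Alternatives covered the pseudocount, filters, scaling, variance models, voom, block and batch terms, and left-out samples.

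The replicate numbers come from the labels. Deviations from the group means correlated at 0.477, 0.465 and 0.517 for same-numbered samples and at 0.462 and 0.480 between numbers 1 and 2, so pairing mainly separates replicate 3. Libraries 1 and 2 of a group differed by more than counting noise (chi-square per gene 10.3 and 8.45). They lay far closer to each other than to replicate 3 (1876 to 2312, at greater depth). A fit that rests on the spread between libraries 1 and 2 alone therefore does not cover the spread to replicate 3.

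Exon lengths and overlaps came from GENCODE M21, which held 94.6% of symbols, and promoters from RefSeq on GRCm38.p6. Protein sequences were not used here.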

Additional observations from a re-analysis of the deposited data

Results flagged for a closer look

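The difference between MSC and TAC was not of one size in the library sets. The log2 change in replicate 3 minus that in replicates 1 and 2 was 1.99 for Rnf43, 1.62 for Lef1, 1.25 for Axin2 and 0.95 for Nkd1. It was -0.54 for Nkd2, -0.67 for Lgr4, -1.05 for Znrf3, -1.17 for Lgr6 and -1.18 for Tcf7. These 9 values drew attention because each passed an interaction term in limma, as did 57.2% of all genes. That term has 1 library per group in replicate 3, and its error is the spread between libraries 1 and 2, which lay far closer to each other than to replicate 3. It therefore does not measure how replicates of the replicate 3 kind vary, and the values are given as a description. For Nkd1, Nkd2, Lgr4, Lgr6 and Axin2 both library sets had the same direction.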

How the results depend on the processing

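Lgr4, Lgr6, Nkd1 and Nkd2 kept their direction in all 19 alternatives. The number of members past the adjusted threshold was 0 in limma and 4 with the library set as a term (11.8% of all genes). It was 0 with replicates 1 and 2 averaged and 0 to 1 when a sample was left out, where 0 to 280 genes passed. With replicates 1 and 2 only it was 7, but 7433 of 15680 genes passed there. The error of that fit is only the spread between replicates 1 and 2. The unadjusted number was 3, and it was 7 with replicates 1 and 2 only (8356 genes) and 1 with these replicates averaged (589 genes).

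The replicate block changed no adjusted call of a member and added Nkd1 at the unadjusted threshold (4 against 3). It moved the count over all genes from 65 to 229 and the unadjusted count from 1824 to 3136. The adjusted count over all genes was 1814 with the library set as a term, 29 without a variance trend, 43 with a pseudocount of 0.5, 114 with quantile normalization, 8 with replicates 1 and 2 averaged, 7433 with these replicates only and 23 with voom, and 0 to 280 when a sample was left out. The unadjusted count was 4554, 1192, 589, 8356 and 3575 with the library set as a term, a mean of at least 10, replicates 1 and 2 averaged, these replicates only and voom, and 1029 to 3112 when a sample was left out. Calls higher in TAC made up 9.23%, against 23.7% with quantile normalization, 40.6% with the replicate block, 44.3% with the library set as a term, 45.1% with replicates 1 and 2 only, 33.9% (95 of 280) without MSC replicate 3, and 0% with voom, no trend, averaging or without TAC replicate 3 (0 of 20). At a mean of at least 10 it was 9 of 60, and without any one of the other libraries no gene was called.

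Of the pathway lists 1 gene passed, against 15 with the library set as a term, 3 with quantile normalization, 36 with replicates 1 and 2 only, and 0 with no filter, no trend, a pseudocount of 0.5, robust moderation, voom or averaging. When a sample was left out it was 0 to 5. The unadjusted number of 13 was 25, 39 and 5 with the library set as a term, replicates 1 and 2 only and averaging. The difference between library sets passed for 8796 of 15391 genes, and for 5392 genes at a mean of at least 10, where fewer were tested. Its error is only the spread between replicates 1 and 2, so nothing is read from these counts.

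With replicates 1 and 2 only, the log2 fold change was -0.25 for Rnf43 and 0.20 for Tcf7. When a sample was left out, it ran from -0.41 to 0.98 for Rnf43, -0.028 to 0.69 for Znrf3, -0.084 to 1.01 for Axin2, -1.02 to 0.11 for Lef1, -0.35 to 0.085 for Tcf7, 0.71 to 2.0004 for Nkd1, -1.18 to -0.15 for Lrp5, -0.028 to 0.84 for Rspo2 and -0.98 to 0.56 for Lrp6. The cause was not tested. Lgr5, at 19 reads or fewer, was left out by the filter on low values.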
